A study of Homo sapiens and Mus musculus with 10 samples.

Results

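Accessible chromatin was examined inside very long genes, which are the autosomal protein-coding genes of 500 kb or more in GENCODE release 44. There were 309 such genes among 19111 autosomal protein-coding genes, and 67 of them spanned 1 Mb or more. A peak was counted when its summit lay inside one of them and more than 2 kb from every annotated start site, so the counts describe the gene bodies and not the promoters. Over the 8 human libraries, 31338 of 687619 autosomal peaks met this rule. The libraries came from bulk short-read ATAC-seq, which marks open chromatin by the insertions of the Tn5 transposase, with 2 replicates for each of 4 lines, and the labels name no treatment or genotype for any of them. GM12878 cells are B lymphocytes immortalised by Epstein-Barr virus, and K562 cells come from a leukaemia with erythroid features. HEK293T derives from embryonic kidney and expresses the SV40 large T antigen, and HFF1 consists of foreskin fibroblasts. The labels do not say whether the replicates were separate cultures, so the spread below measures the difference between 2 libraries, which may be technical. The p-values below set differences between lines against that spread.

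Very long genes consist almost wholly of introns. Many of them encode synaptic adhesion proteins, ion channels, receptors and axon guidance molecules that neurons use, and others encode signalling scaffolds that many cell types use. Their introns hold enhancers, which are short stretches bound by transcription factors and opened in the cells that use them, and several of the genes lie at common fragile sites, where late replication leaves chromosomes prone to breakage.

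The lines were checked first by promoter peaks at genes that mark them. All 8 markers, namely CD79A and MS4A1 for B cells, GATA1 and TAL1 for erythroid cells, COL3A1 and TWIST1 for fibroblasts and PAX2 and LHX1 for kidney, had a promoter peak in both libraries of their own line. Peaks in other lines were present at TWIST1 and PAX2 in 4 libraries each, at LHX1 in 2 and at CD79A and COL3A1 in 1 each. Depth differed between the lines. The background level of a library, in reads per window and proportional to depth, was 0.465 and 0.466 in HEK293T and between 1.71 and 2.43 in the other 6 libraries, and the median pileup at a counted peak was 12 reads in HEK293T against 22 to 26 elsewhere.

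The genes with the most line-restricted density are described through the regions that mark them. For each line, the region shown was called in both replicates of that line and in no other human library. Among such regions of its gene it had the highest mean deposited fold over background, and peaks shared with other lines were not ranked. Each sequence is the hg38 plus strand, 50 bases on either side of the summit, written 5′ to 3′, with any match to the searched motifs in capitals. All 8 regions are intronic. The first 4 were chosen because they hold a match to the letters searched for a factor family. They are not in each case from the highest-ranked gene of the line. They therefore do not show how often such regions hold a match.
CADPS2, GM12878, chr7:122544325-122544838, PU.1 match: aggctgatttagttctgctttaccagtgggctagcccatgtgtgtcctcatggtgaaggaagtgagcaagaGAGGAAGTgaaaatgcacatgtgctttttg
RELN, K562, chr7:103843592-103844411, GATA match: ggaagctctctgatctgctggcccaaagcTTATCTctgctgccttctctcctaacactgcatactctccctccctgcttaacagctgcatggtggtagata
CNTNAP2, HEK293T, chr7:147432131-147432405, CTCF match: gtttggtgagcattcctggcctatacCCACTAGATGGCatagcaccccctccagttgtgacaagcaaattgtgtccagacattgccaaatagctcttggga
SEMA5A, HFF1, chr5:9467608-9468417, AP-1 match: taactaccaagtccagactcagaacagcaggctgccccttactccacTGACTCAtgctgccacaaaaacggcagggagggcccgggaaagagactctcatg

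The other 4 come from the genes ranked highest for each line among those whose region held no match, and are shown for contrast. A lack of match says only that the searched letters are not in this window.
UNC13C, GM12878, chr15:54347407-54347900: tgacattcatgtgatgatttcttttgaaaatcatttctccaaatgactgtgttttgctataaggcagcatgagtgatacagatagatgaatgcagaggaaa
GABRG3, K562, chr15:27179873-27180117: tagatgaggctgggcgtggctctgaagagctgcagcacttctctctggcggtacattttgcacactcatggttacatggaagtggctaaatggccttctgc
AGBL1, HEK293T, chr15:86743375-86743642: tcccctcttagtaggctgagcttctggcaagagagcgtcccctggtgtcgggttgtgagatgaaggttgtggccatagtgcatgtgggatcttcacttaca
ENOX1, HFF1, chr13:43489092-43489717: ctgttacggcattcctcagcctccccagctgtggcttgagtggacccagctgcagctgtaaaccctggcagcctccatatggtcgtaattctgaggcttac

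The fold at these summits, which is the authors' own value, was 15.6 and 19.7 in the 2 GM12878 libraries at the CADPS2 region and 12.7 and 11.9 in the 2 K562 libraries at the RELN region. It was 9.88 and 12.7 in HEK293T at the CNTNAP2 region, and 15.2 and 12.4 in HFF1 at the SEMA5A region. The regions lay far inside their genes. The CNTNAP2 region was 1316 kb from the 5′ end of the gene and 54.2 kb from the nearest annotated start site, and the SEMA5A region was 78.0 kb from the 5′ end. None was the sole line-restricted region of its gene. CADPS2 had 24 regions specific to GM12878, SEMA5A had 29 specific to HFF1, and RELN and CNTNAP2 had 12 each in K562 and HEK293T. The regions chosen in the same way in ZNF804B, SOX6, NKAIN2 and KCNMB2 were searched too and held no match. A match was therefore the less common outcome among the regions searched.

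The first comparison asked whether the density of peaks in very long genes differed between lines and from that in other genes. Peaks were sparser in very long genes than in the other autosomal protein-coding genes in 8 of 8 libraries. The 2 GM12878 libraries had 4690 and 4827 peaks in them, the K562 libraries 2487 and 2129, the HEK293T libraries 2385 and 2353, and the HFF1 libraries 6476 and 5991. Over 240.7 Mb of gene body outside the start-site windows, this gave 19.8 ± 0.402 peaks per Mb in GM12878 (SD, n = 2 here and below), 9.59 ± 1.05 in K562, 9.84 ± 0.0940 in HEK293T and 25.9 ± 1.42 in HFF1. The replicates of K562 and HEK293T overlap on this scale and the other lines stand apart. In the other genes the same count gave 38.5 ± 0.564, 25.1 ± 2.17, 12.7 ± 0.316 and 46.3 ± 2.18 peaks per Mb.

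Within a library, density in very long genes over density in other genes removes the total number of peaks. This ratio was highest in HEK293T at 0.775 ± 0.0119, followed by HFF1 at 0.560 ± 0.00447 and GM12878 at 0.513 ± 0.00294, and lowest in K562 at 0.382 ± 0.00881. No replicates of different lines overlapped. With 2 libraries a line, no permutation test between a pair of lines can pass, so the 4 lines were tested together by eta squared, the fraction of the variance that lies between lines, over all 105 ways of pairing 8 libraries. Eta squared was 0.998 for the ratio (exact one-sided permutation p = 0.00952, the smallest these pairings can give) and 0.990 for the density (exact permutation p = 0.0286). HEK293T, with the highest ratio, was also the shallowest line, with a background level of 0.465 and 0.466. That level was 2.43 and 2.06 in HFF1, 2.21 and 1.97 in K562 and 1.71 and 1.73 in GM12878. The part of depth in the order of the ratios was not tested. In a setting added after the data were seen, the pileups of the called peaks were thinned to the background level of the shallowest library, which can only remove peaks. The ratio then was 0.775 in HEK293T, 0.526 in HFF1, 0.493 in GM12878 and 0.350 in K562. With the 40000 strongest peaks of each library, it was 0.774, 0.474, 0.442 and 0.339 in the same order. In that setting very long genes held more peaks in HEK293T than in any other line, at 7.39 ± 0.00881 per Mb against 5.76 ± 0.0558 in GM12878, 4.00 ± 0.0441 in K562 and 6.01 ± 0.0588 in HFF1.

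**Figure D1:**
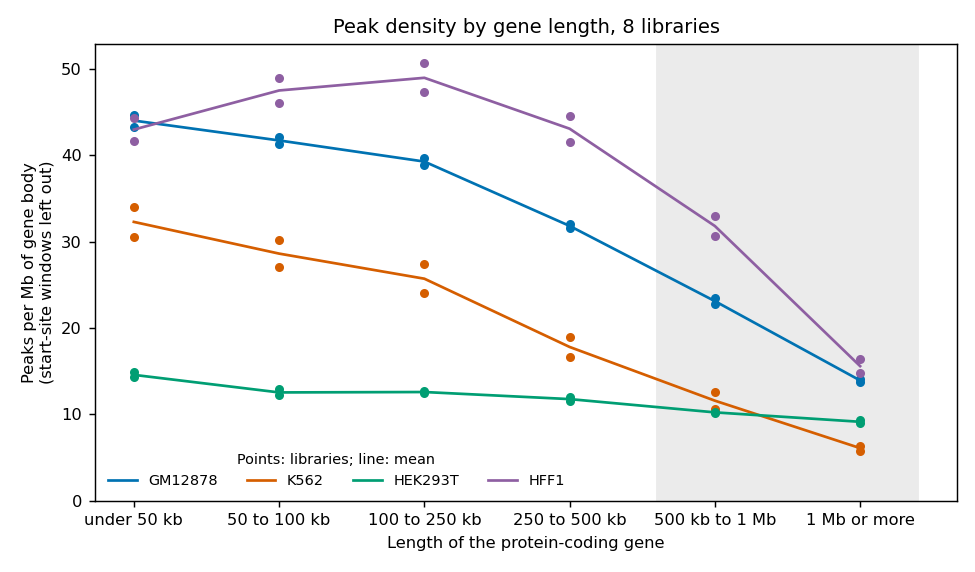
Peaks per Mb of gene body, with start-site windows left out, against the length of protein-coding genes in 6 classes. Points are single libraries, lines join the means of 2 replicates, and the shaded classes are the very long genes; from the shortest to the longest class K562 went from 32.3 to 6.10 peaks per Mb and HEK293T from 14.6 to 9.15.

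The plot of density by gene length places the very long genes on a slope that differed between lines. From genes under 50 kb to genes of 1 Mb or more, the mean density went from 44.0 ± 0.993 to 13.9 ± 0.298 peaks per Mb in GM12878. The same classes had 32.3 ± 2.46 and 6.10 ± 0.426 in K562, and 14.6 ± 0.405 and 9.15 ± 0.217 in HEK293T. HFF1 went up from 43.0 ± 1.90 under 50 kb to 49.0 ± 2.37 at 100 to 250 kb and was at 15.6 ± 1.12 in genes of 1 Mb or more. The limit of 500 kb cut through this slope. The 32 genes of 500 to 525 kb had 24.0 peaks per Mb in GM12878, 17.0 in K562, 11.2 in HEK293T and 38.7 in HFF1, and the 37 genes of 475 to 500 kb had 34.4, 18.2, 11.2 and 40.6.

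Peaks were spread along the gene bodies. When each gene was divided into 5 equal segments from its 5′ end, density in segment 5, at the 3′ end, was 1.19 to 1.46 times that in segment 1, in 8 of 8 libraries. Segment 2 was below segment 1 in all of them, at 0.739 to 0.994 times. Peaks found again in the other replicate made up 71.3% to 86.8% of the counted peaks of a library, against 74.4% to 88.4% in other genes. Exonic summits were 2.22% to 3.01% of the counted peaks and 7.83% to 9.89% of peaks in other genes.

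The genes themselves differed widely in density. The median gene had 17.5 peaks per Mb in GM12878 (interquartile range 9.20 to 29.0), 7.26 in K562 (1.90 to 16.3), 8.84 in HEK293T (5.57 to 13.4) and 24.9 in HFF1 (6.44 to 46.6). Every gene had at least 1 peak in at least 1 library. Averaged over the 8 libraries, the densest was GSE1, a protein found with histone deacetylase complexes, followed by PRKCE and PRKCA, members of the protein kinase C family. GSE1 had 41 and 39 peaks in GM12878, 60 and 50 in K562, 17 and 17 in HEK293T and 58 and 49 in HFF1, which is 91.3 ± 3.23, 126 ± 16.1, 38.8 ± 0 and 122 ± 14.5 peaks per Mb. These values exceed the median gene of each line by several fold, and the GM12878 and HEK293T replicates lie below those of K562 and HFF1. Within single lines, PARD3 was densest in GM12878, at 93.7 peaks per Mb, and PCDH9 in HEK293T. At the other end stood GALNT17, a glycosyltransferase of the GalNAc-transferase family, with 4 and 1 peaks in K562 and 0 in the other 6 libraries.

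To compare genes between libraries of unequal size, the number of peaks was divided by the number expected from the eligible length of the gene and the density of the library over all genes of 100 kb or more. By this scaled density, 133 of the 309 genes were highest in HEK293T, 72 in HFF1, 59 in GM12878 and 45 in K562. The same counts over all genes of 100 kb or more are not given, so these do not show a trait of very long genes. The second comparison asked which genes differed between the lines, in a limma fit over 3292 genes of 100 kb or more with at least 8 peaks, with Benjamini-Hochberg adjustment over all of them. The fit tested 307 very long genes, and GALNT17 and TAFA1 stayed out with too few peaks. Among them 288 differed between lines at an adjusted p under 0.05, which is 93.8%, against 83.1% of all genes tested.

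In HEK293T, 174 of the 307 genes were higher than the mean of the other 3 lines and 39 were lower, against 25.2% and 29.4% of all genes tested. K562 went the other way, with 65 higher and 155 lower, against 30.4% and 25.7%. GM12878 had 113 higher and 74 lower, against 29.9% and 22.0%, and HFF1 had 103 higher and 112 lower, against 28.7% and 25.2%. The median log2 difference over the very long genes was 0.83 in HEK293T, -0.58 in K562, 0.16 in GM12878 and 0.05 in HFF1, and over all genes tested it was -0.07, 0.14, 0.15 and 0.11. Leaving out either GM12878 library lowered that line's calls to 75 higher and 49 or 46 lower. The split depends on the scaling. Without it, the higher and lower genes numbered 68 and 142 in HEK293T, 38 and 183 in K562, 177 and 36 in GM12878 and 194 and 59 in HFF1. Of all genes tested, 5.86% were then higher in HEK293T, 17.2% in K562, 49.2% in GM12878 and 65.1% in HFF1. The unscaled median over all genes tested was then -1.17 in HEK293T, -0.23 in K562, 0.66 in GM12878 and 1.08 in HFF1 on the log2 scale, and the median over very long genes was -0.42, -0.97, 0.73 and 1.11.

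With thinned pileups, HEK293T had 151 genes higher and 23 lower among 304 tested, with 18.9% and 21.7% of all genes, and 149 of the 151 were among the 174. With 40000 peaks per library it had 159 higher and 26 lower among 291 tested, with 24.5% and 24.6% of all genes. K562 had 47 higher and 137 lower with thinned pileups, with 20.3% and 20.9% of all genes, and 56 higher and 127 lower with 40000 peaks, with 26.5% and 23.3% of all genes.

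The members were then described by what they encode. The lists overlap in part and 172 of the 309 genes are on at least 1 of them. Among all 307 tested very long genes, 56.7% were higher and 12.7% lower in HEK293T, 21.2% and 50.5% in K562, 36.8% and 24.1% in GM12878 and 33.6% and 36.5% in HFF1, and the lists are read against these shares. Among 56 adhesion and synapse genes, which build the contacts between neurons, 45 (80.4%) were higher in HEK293T and 3 lower, with a median log2 difference of 1.30. In K562 6 were higher and 32 (57.1%) lower (median -0.82), in GM12878 19 and 15 (median 0.15), and in HFF1 16 and 24 (median -0.35). The 20 ion channel and neurotransmitter receptor genes had 15 (75%) higher and 1 lower in HEK293T (median 1.25), 5 and 11 (55%) in K562 (median -0.69), 10 and 3 in GM12878 (median 0.69) and 7 and 9 in HFF1 (median -0.30). The 8 glutamate and GABA receptor genes, all of them on the previous list too, had 7 (87.5%) higher and 0 lower in HEK293T, 3 and 4 (50.0%) in K562, 6 and 1 in GM12878, and 1 and 5 in HFF1.

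The next lists hold regulators and scaffolds. Of 29 transcription and RNA regulators, 11 (37.9%) were higher and 5 lower in HEK293T (median 0.34), 10 and 11 (37.9%) in K562 (median 0.10), 11 and 7 in GM12878 (median 0.23) and 8 and 12 in HFF1 (median 0.15). Of 48 signalling and scaffold genes, 22 (45.8%) were higher and 5 lower in HEK293T (median 0.53), 7 and 28 (58.3%) in K562 (median -0.65), 21 and 11 in GM12878 (median 0.32) and 14 and 14 in HFF1 (median 0.09). Whether these lists differ from one another was not tested. The 15 tested genes of extracellular matrix and glycan enzymes had 12 higher and 1 lower in HEK293T (median 2.08), 2 and 9 in K562 (median -1.42), 6 and 3 in GM12878 (median 0.09) and 3 and 8 in HFF1 (median -0.79). Among 30 genes at common fragile sites, of which 10 are also adhesion or synapse genes, 20 (66.7%) were higher and 3 lower in HEK293T (median 0.92). K562 had 4 higher and 20 (66.7%) lower (median -1.13), GM12878 13 and 8 (median 0.52) and HFF1 13 and 10 (median 0.32).

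Restriction to a line was measured as the scaled density of that line over the sum in the 4 lines. Among genes with at least 8 peaks in both replicates of the line, it was over 0.5 in 32 of 109 genes for HEK293T, 16 of 206 for HFF1, 11 of 217 for GM12878 and 8 of 99 for K562. The limit of 8 peaks is a stricter bar in a line where fewer peaks are expected. In GALNT17, for example, 17.3 and 17.7 peaks were expected in the GM12878 libraries and 6.57 and 6.42 in those of HEK293T. These shares therefore cannot be compared between lines. The shares over all genes of 100 kb or more are not given either, so they are not read as a trait of very long genes. The 6 genes ranked highest for each line are described below without a test, because this measure chose them.

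**Figure D2:**
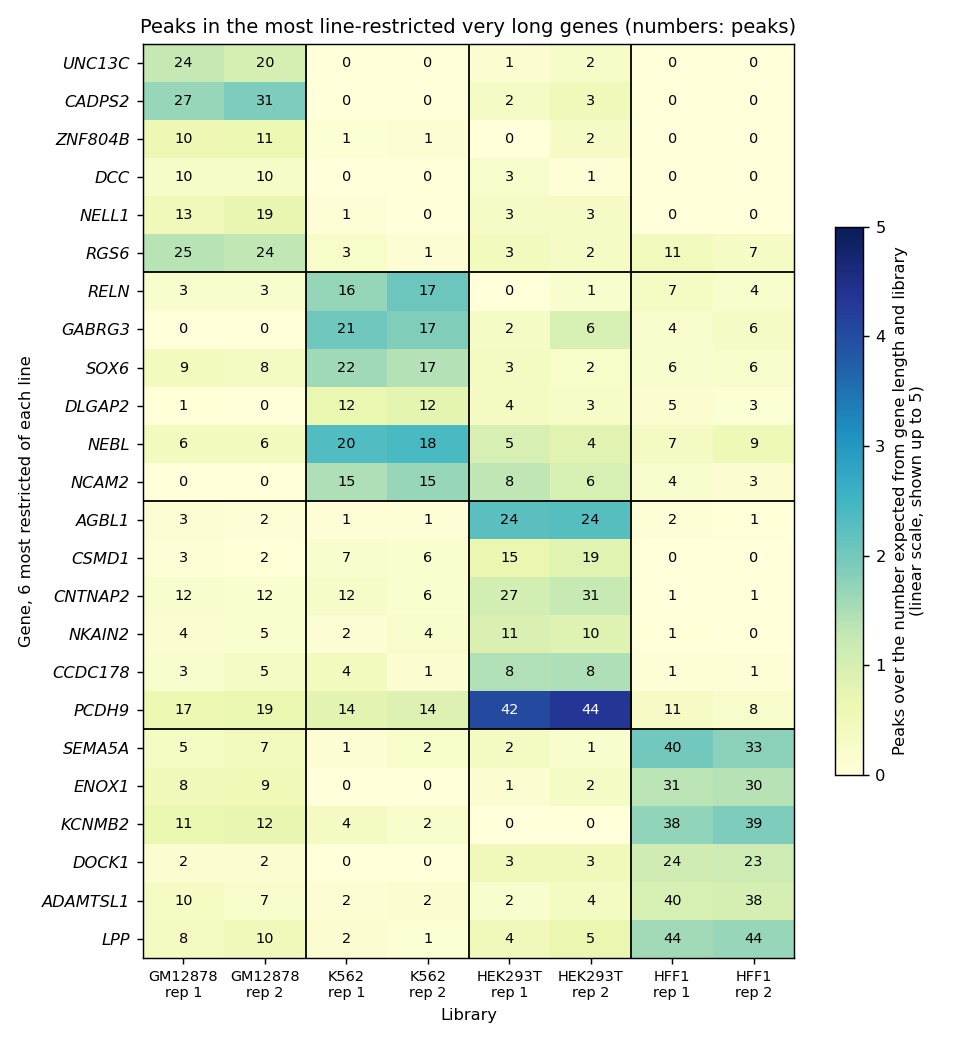
Peaks in the 6 most restricted very long genes of each line (rows) in the 8 libraries (columns). Numbers are peaks and the colour is peaks over the number expected from gene length and library, on a linear scale; the blocks on the diagonal stand out, from 8 and 8 peaks of CCDC178 in HEK293T to 44 and 44 of LPP in HFF1.

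In GM12878 the 2 leading genes encode proteins of vesicle release. UNC13C (ENSG00000137766.18, chr15:53978201-54628707), a priming factor of synaptic vesicles, had 24 and 20 peaks in GM12878, 1 and 2 in HEK293T and 0 in the 4 libraries of K562 and HFF1. CADPS2 (ENSG00000081803.17, chr7:122318411-122886759), an activator of dense-core vesicle release, had 27 and 31 peaks in GM12878, 2 and 3 in HEK293T and again 0 in K562 and HFF1. Its density in GM12878 was 55.1 ± 5.38 peaks per Mb, well above the median gene of that line. Its promoter had a peak in 8 of 8 libraries, so the lines differed in the body and not in whether the promoter was called. ZNF804B (chr7:88759700-89338528), a zinc finger gene, had 10 and 11 peaks in GM12878 and at most 2 in any other library. The netrin receptor gene DCC (chr18:52340197-53535899) had 10 and 10 in GM12878, 3 and 1 in HEK293T and 0 elsewhere. NELL1 (chr11:20669551-21575686), which encodes a secreted protein of bone formation, had 13 and 19 peaks, 3 and 3 in HEK293T, 1 and 0 in K562 and 0 in HFF1. RGS6 (chr14:71932429-72566530), a regulator of G protein signalling, had 25 and 24 and kept 11 and 7 in HFF1.

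In K562 the leading genes included SOX6 (ENSG00000110693.19, chr11:15966449-16739591), a transcription factor of erythroid maturation and globin silencing. It had 22 and 17 peaks in K562, 9 and 8 in GM12878, 3 and 2 in HEK293T and 6 and 6 in HFF1. RELN (ENSG00000189056.15, chr7:103471381-103989658), the secreted guidance protein reelin, had 16 and 17 peaks in K562, 7 and 4 in HFF1, 3 and 3 in GM12878 and 0 and 1 in HEK293T. The K562 libraries are high throughout and the other lines do not reach them. GABRG3 (chr15:26971181-27541984), a GABA-A receptor subunit, had 21 and 17 peaks in K562, 2 and 6 in HEK293T, 4 and 6 in HFF1 and 0 in both GM12878 libraries. NCAM2 (chr21:20998409-21543329), a neural cell adhesion molecule, had 15 and 15 in K562, 8 and 6 in HEK293T, 4 and 3 in HFF1 and 0 in GM12878. The remaining ones were DLGAP2 (chr8:737628-1708476), a postsynaptic scaffold with 12 and 12 peaks in K562, and NEBL (chr10:20779973-21293011), an actin-binding protein of the Z-disc with 20 and 18. GM12878 had 0 peaks also in the 500 kb on either side of GABRG3 and of NCAM2, whereas K562 had 10 and 7 and 3 and 4 there.

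In HEK293T the leading gene was AGBL1 (ENSG00000273540.5, chr15:86079871-87049169), a carboxypeptidase that trims glutamates from proteins. It had 24 and 24 peaks in HEK293T and at most 3 in any other library. No promoter peak was called for it in HEK293T, and HFF1 was the line with one in both libraries. CNTNAP2 (ENSG00000174469.23, chr7:146116002-148420998), an adhesion protein that clusters potassium channels on axons, had 27 and 31 peaks in HEK293T, 12 and 12 in GM12878, 12 and 6 in K562 and 1 and 1 in HFF1. CSMD1 (chr8:2935353-4994972), a membrane protein that inhibits complement, had 15 and 19 in HEK293T, 7 and 6 in K562, 3 and 2 in GM12878 and 0 in HFF1. The protocadherin PCDH9 (ENSG00000184226.15, chr13:66302834-67230445) had 42 and 44 peaks in HEK293T, 17 and 19 in GM12878, 14 and 14 in K562 and 11 and 8 in HFF1. At 48.2 ± 1.59 peaks per Mb it was the densest very long gene of HEK293T. NKAIN2 (chr6:123803865-124825640), a partner of the sodium pump, had 11 and 10, and CCDC178 (chr18:32937402-33441101), a coiled-coil protein, 8 and 8.

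In HFF1 the leading genes included LPP (ENSG00000145012.15, chr3:188153284-188890671), a LIM-domain protein of focal adhesions. It had 44 and 44 peaks in HFF1, 8 and 10 in GM12878, 2 and 1 in K562 and 4 and 5 in HEK293T, which is 65.0 ± 0 peaks per Mb in HFF1 against 13.3 ± 2.09, 2.21 ± 1.04 and 6.64 ± 1.04. SEMA5A (ENSG00000112902.12, chr5:9035033-9546075), a semaphorin of axon guidance, had 40 and 33 peaks in HFF1 and 1 to 7 in the other 6 libraries. ENOX1 (chr13:43213130-43786972), a cell-surface oxidase, had 31 and 30 peaks in HFF1, 8 and 9 in GM12878, 1 and 2 in HEK293T and 0 in K562. KCNMB2 (chr3:178272932-178844429), an accessory subunit of a calcium-activated potassium channel, had 38 and 39 in HFF1, 11 and 12 in GM12878, 4 and 2 in K562 and 0 in HEK293T. DOCK1 (chr10:126905409-127452517), an activator of Rac in migrating cells, had 24 and 23 in HFF1 and at most 3 elsewhere. ADAMTSL1 (chr9:17906563-18910950), a secreted matrix protein, had 40 and 38 in HFF1 and 10 and 7 in GM12878.

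**Figure D3:**
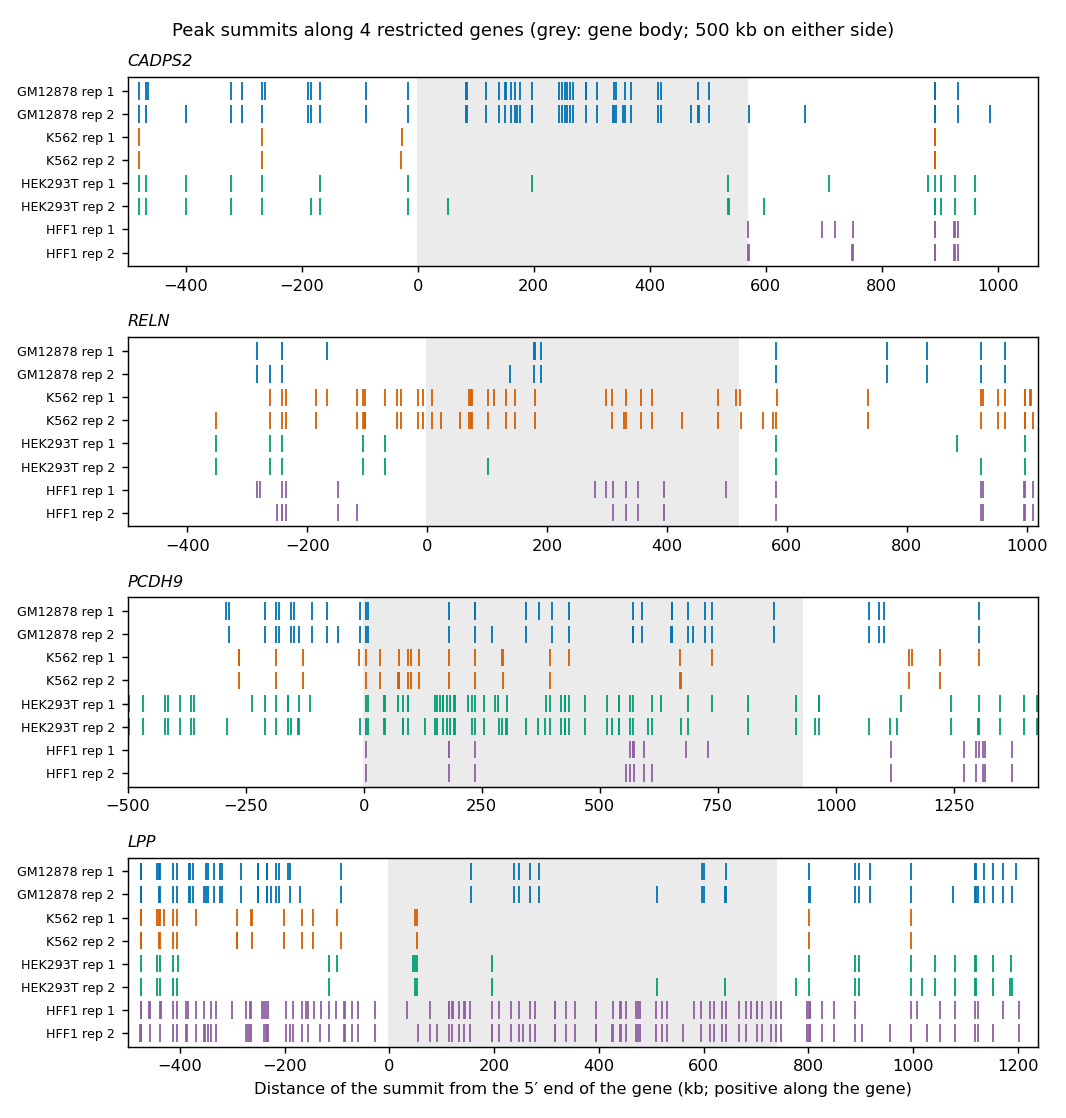
Peak summits (ticks) in the 8 libraries along CADPS2, RELN, PCDH9 and LPP, by distance in kb from the 5′ end of the gene, with the gene body in grey and 500 kb on either side. The restricted line has the most ticks in the grey body, and in CADPS2 the 27 and 31 GM12878 peaks contrast with 0 in K562 and HFF1.

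The peaks around these genes did not always follow the gene. In the plot of summits along 4 restricted genes, the flanks hold peaks of several lines. Flank counts were scaled by the density of each library inside genes of 100 kb or more. By that scale, the 500 kb flanks were highest in the same line as the body for 10 of the 24 genes. These were 2 of 6 in GM12878, 2 of 6 in K562, 4 of 6 in HEK293T and 2 of 6 in HFF1. The scale favours HEK293T in flanks. In replicate 1, HEK293T had 15889 peaks outside protein-coding genes and 10053 in the other genes. The same counts were 32242 and 29655 in GM12878, 24287 and 20702 in K562 and 43068 and 37178 in HFF1. The 10 genes are therefore no measure of how often flanks follow the body. Around CADPS2 the flanks held 15 and 17 peaks in GM12878, 13 and 14 in HEK293T, 5 and 5 in K562 and 9 and 9 in HFF1. Around SEMA5A they held 43 and 45 in HFF1 and 2 to 8 in the other libraries, so here the flanks and the body were high together. Around AGBL1, HFF1 had 51 and 44 flanking peaks and HEK293T 17 and 20, the opposite order to the body in unscaled counts. Scaled as above, HEK293T was highest in these flanks too, with a share of 0.419, under the same limit.

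A gene could also be empty in a line. No peak in either replicate was found in 44 very long genes in K562, in 30 in HFF1, in 7 in GM12878 and in 5 in HEK293T. A promoter peak was called in both replicates in 12 of the 44, 11 of the 30, 1 of the 7 and 3 of the 5. The fitted size of a difference against a line without peaks depends on the pseudocount, so for these genes the numbers of peaks are given with the adjusted p of the fit. The genes given a p below were named as the called genes of largest size on their list. A p under 0.05 was therefore fixed by that choice and adds no separate support.

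**Figure D4:**
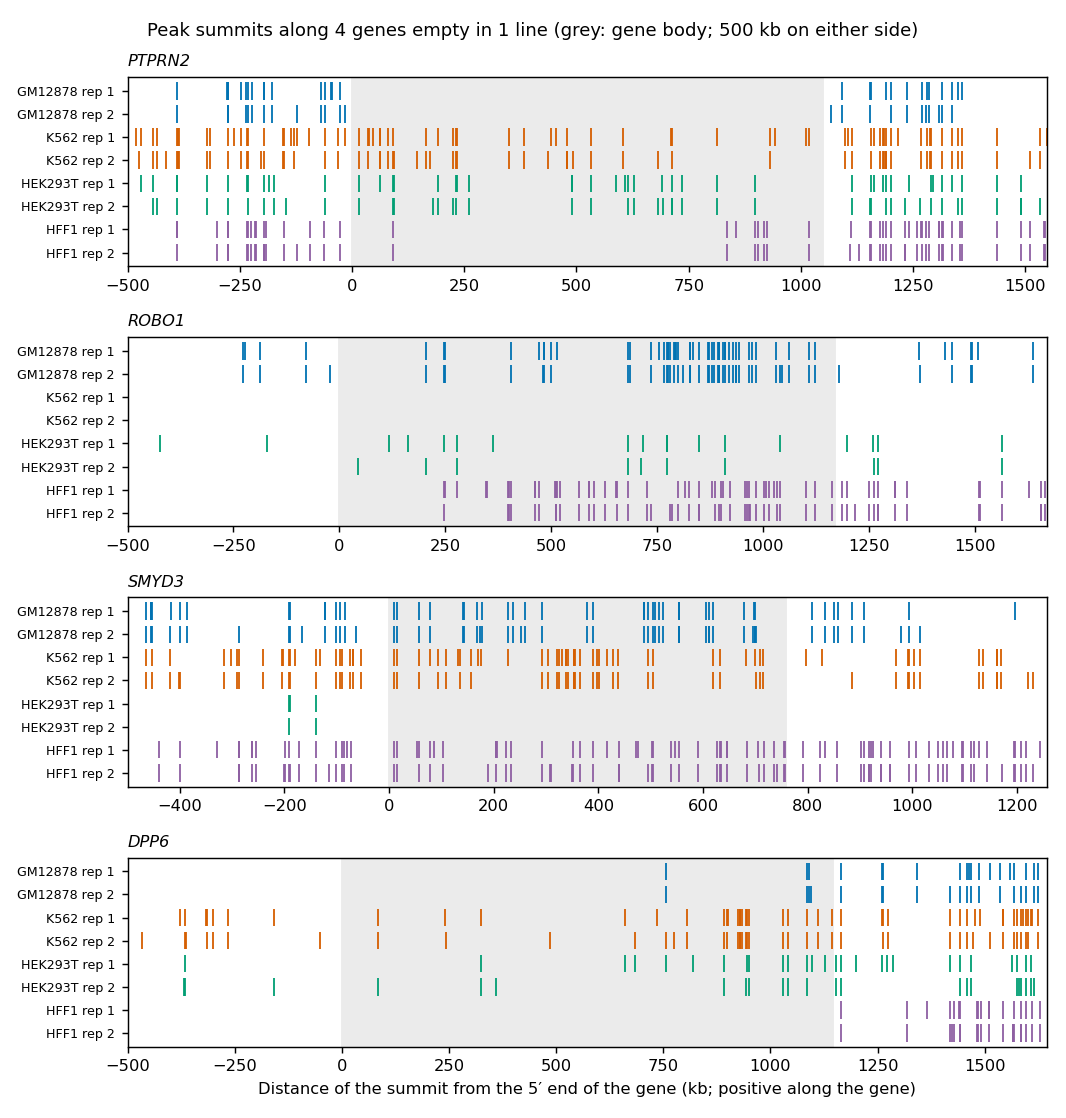
Peak summits (ticks) in the 8 libraries along PTPRN2, ROBO1, SMYD3 and DPP6, by distance in kb from the 5′ end of the gene, with the gene body in grey and 500 kb on either side. Each gene is empty in 1 line, GM12878, K562, HEK293T and HFF1 in that order, and the K562 flanks of ROBO1 are empty too.

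ROBO1 (chr3:78597239-79767998), a receptor for the guidance protein Slit, had 0 peaks in K562, 47 and 43 in GM12878, 12 and 7 in HEK293T and 46 and 40 in HFF1 (limma adjusted p = 2.3e-05 for K562). K562 had no promoter peak at ROBO1 and none in its flanks, where the other libraries had 3 to 15. DPYD (chr1:97077743-97995000), which encodes the first enzyme of pyrimidine breakdown, also had 0 peaks in K562, against 6 and 9 in HEK293T, 27 and 28 in GM12878 and 25 and 24 in HFF1 (limma adjusted p = 2.3e-05). Its promoter had a peak in 8 of 8 libraries, K562 included. FGF14 (chr13:101710804-102402457), which modulates sodium channels, had 0 in K562 and 5 to 19 elsewhere (limma adjusted p = 2.3e-05), and INPP4B (chr4:142023160-142847432), a lipid phosphatase, had 0 and 1 in K562 and 13 to 34 elsewhere (limma adjusted p = 0.000338). In K562, 9 of the 44 empty genes had empty flanks as well, against 14 of all 309 very long genes. The same counts were 6 of 30 against 12 of 309 in HFF1. They were 2 of 7 against 2 of 309 in GM12878, and 0 of 5 against 2 of 309 in HEK293T.

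PTPRN2 (chr7:157539056-158587823), a receptor-type phosphatase of secretory vesicles, had 0 peaks in GM12878 and 27 and 25 in K562, 20 and 19 in HEK293T and 8 and 7 in HFF1 (limma adjusted p = 2e-05 for GM12878). The GM12878 flanks held 29 and 24 peaks, so the gap began and ended near the gene. SMYD3 (chr1:245749342-246507312), a lysine methyltransferase, had 0 peaks in HEK293T, 29 and 33 in GM12878, 38 and 29 in K562 and 37 and 35 in HFF1 (limma adjusted p = 3.2e-05 for HEK293T). From its length, 7.97 and 7.79 peaks were expected in the 2 HEK293T libraries. Its promoter had a peak in HEK293T, and the flanks held 3 and 2 HEK293T peaks against 22 to 46 in the other libraries. KIF26B, a kinesin gene next to it, on chr1:245154985-245709432, was empty in HEK293T as well, with 9 to 37 peaks elsewhere.

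Genes named from several lists had few or no peaks in HFF1. The list of 20 channel and receptor genes as a whole had 7 (35%) higher and 9 (45%) lower in HFF1. Among all tested very long genes the shares were 33.6% and 36.5%. DPP6 (chr7:153748133-154894285), an accessory subunit of potassium channels, had 0 peaks in HFF1, 21 and 21 in K562, 13 and 9 in HEK293T and 3 and 4 in GM12878 (limma adjusted p = 2.1e-05 for HFF1). RYR2 (chr1:237042184-237833988), the calcium release channel of heart muscle, had 0 in HFF1, 16 and 14 in HEK293T, 14 and 14 in GM12878 and 5 and 5 in K562 (limma adjusted p = 2.1e-05). ADARB2 (chr10:1177313-1737525), an RNA-editing family member, had 0 in HFF1 and 5 to 16 elsewhere (limma adjusted p = 2.1e-05). These 3 genes had promoter peaks in HEK293T and GM12878 and none in HFF1. The glutamate receptor gene GRM7 (chr3:6770001-7741533) had 0 peaks in HFF1 and 2 to 9 elsewhere (limma adjusted p = 0.000102), and the sulfotransferase gene HS6ST3 (chr13:96090107-96839562) 0 and 2 to 8 (limma adjusted p = 7.7e-05). The heparan sulfate proteoglycan gene GPC5 (chr13:91398621-92873682) had 1 and 0 peaks in HFF1 and 38 and 33 in HEK293T (limma adjusted p = 8.5e-05), with a promoter peak in 8 of 8 libraries.

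PRKCA, KALRN and LSAMP were the genes least restricted to any line. PRKCA (chr17:66302613-66810743) had 31 and 29 peaks in GM12878, 21 and 19 in K562, 13 and 12 in HEK293T and 36 and 42 in HFF1, and its scaled density was 2.02, 2.26, 2.26 and 2.04 times the expected number. These numbers follow the size of the libraries. KALRN, which acts in dendritic spines, lay at 1.68, 1.13, 1.38 and 1.43 times, and the adhesion gene LSAMP at 0.985, 0.467, 1.02 and 0.941 times, in the same order of lines. K562 was the low line for KALRN and LSAMP. These 3 were chosen for the lowest share in their highest line, which does not count a low line, among 39 genes with at least 8 peaks in every library, which is why no test is given.

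Promoter peaks were not used in choosing the genes. In both replicates of a line, 273 of the 309 genes had one in HEK293T, 262 in HFF1, 238 in GM12878 and 199 in K562, 167 genes had one in all 8 libraries, and 8 genes had none in any. Genes with more peaks in the body tended to be those with a promoter peak. In HFF1 the median density was 30.6 peaks per Mb in genes with a promoter peak and 2.80 in the 47 genes without, and in K562 it was 10.1 against 1.56 in 110 genes. GM12878 had 20.3 against 9.10, and HEK293T 9.31 against 5.27. In HFF1, 102 of the 103 genes called higher had a promoter peak in both replicates and 81 of the 112 called lower. The same counts were 53 of 65 and 79 of 155 in K562, and 94 of 113 and 49 of 74 in GM12878. HEK293T did not show this order, with 152 of 174 among the higher genes and 36 of 39 among the lower.

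The third comparison asked how far the regions of very long genes were shared between lines. Peaks of the 8 libraries were merged into regions, and a region called in both replicates of a line was specific to it when no library of another line had a peak there. In HEK293T 481 of 1723 regions in very long genes were specific, which is 27.9% (95% Wilson interval 25.8% to 30.1%, for counting error only), against 11.6% (10.9% to 12.4%) in other genes and 17.9% (17.2% to 18.6%) outside protein-coding genes. In HFF1 the share was 69.7% (68.4% to 71.0%) against 60.1% in other genes, in GM12878 56.4% (54.8% to 57.9%) against 51.3%, and in K562 36.7% (34.4% to 39.0%) against 33.6%. The share was higher in very long genes than in other genes in 4 of 4 lines. These shares compare regions, which are not replicates, and no test was made between lines. Thinned pileups moved the HEK293T share to 36.9%, against 18.4% in other genes, and 40000 peaks per library moved it to 46.7%, against 25.5%. In these settings HEK293T stood above K562, which was at 32.7% and 39.6%. Of 13770 regions in very long genes, 309 had a peak in all 8 libraries, which is 2.24%, against 3.84% in other genes, 4.71% outside genes and 21.8% at start sites.

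**Figure D5:**
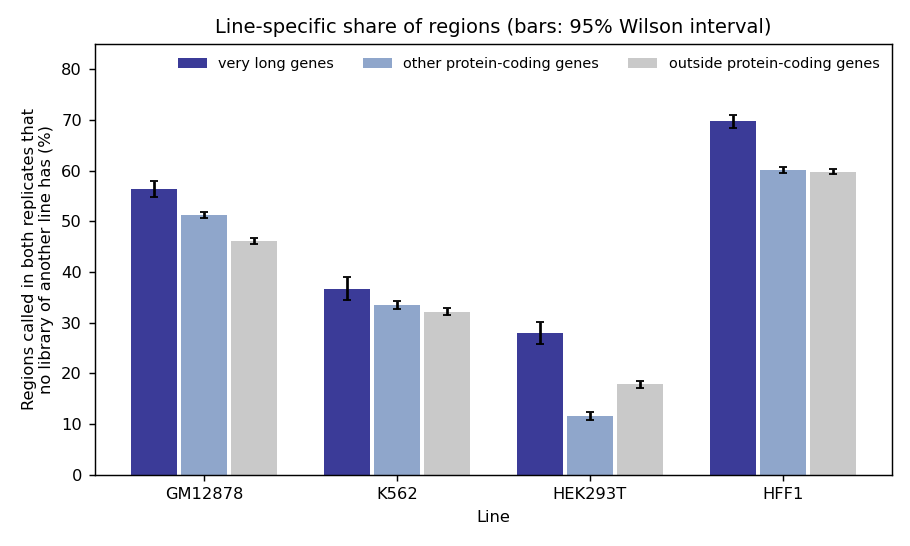
Share of the regions called in both replicates of a line that no library of another line has, in percent, for very long genes, other protein-coding genes and regions outside protein-coding genes. Error bars are 95% Wilson intervals; the very long genes have the tallest bar in every line, at 27.9% against 11.6% and 17.9% in HEK293T.

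The sequences under the summits were described by 7 motifs, searched on both strands in the same window as the regions printed above. The letters searched for AP-1, the factor family of Fos and Jun, were TGANTCA. For GATA factors, which direct erythroid genes, they were AGATAA. RUNX factors of blood cells were searched as AACCACA. PU.1, a factor of B and myeloid cells, was searched as GAGGAAGT. The TEAD factors, effectors of the Hippo pathway, were searched as ACATTCC. Homeodomain factors were searched as TAATTA, and the insulator protein CTCF by its consensus. In 254988 evenly spaced windows of the same length across the very long genes, matches were found in 3.29%, 8.58%, 1.97%, 0.491%, 1.44%, 5.15% and 0.0259% in that order. Counted peaks differed from these windows and between lines. AP-1 letters were under 21.3% ± 0.251 of the peaks in HFF1, 12.3% ± 0.226 in GM12878, 10.7% ± 0.375 in K562 and 5.28% ± 0.129 in HEK293T. GATA letters were under 13.2% ± 0.0356 in K562 and 4.45% to 5.04% in the other lines, below the windows. RUNX and PU.1 letters were most frequent in GM12878, at 6.39% ± 0.219 and 2.96% ± 0.0901, and TEAD letters in HFF1, at 2.99% ± 0.0737. The CTCF consensus was under 8.63% ± 0.186 in HEK293T, 7.76% ± 0.0544 in K562, 5.54% ± 0.0210 in GM12878 and 2.81% ± 0.155 in HFF1.

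How near these shares were to those of peaks in other genes varied by motif and was not tested. AP-1 in HFF1 was 21.1% ± 0.0492 in other genes, GATA in K562 11.7% ± 0.163, PU.1 in GM12878 3.33% ± 0.0274 and CTCF in HEK293T 10.1% ± 0.446. GATA letters were more frequent in very long genes in each line, with 4.45% against 3.25% in HEK293T, 5.04% against 4.21% in HFF1 and 4.94% against 4.18% in GM12878. So were homeodomain letters, at 3.22% against 2.48% in GM12878, 1.48% against 1.21% in K562, 1.29% against 1.04% in HEK293T and 1.94% against 1.77% in HFF1. The GC content around the summits in very long genes was 45.4% in GM12878, 51.4% in K562, 51.4% in HEK293T and 45.4% in HFF1, and in other genes 48.1%, 52.9%, 54.2% and 47.7%. Base composition therefore moves with the class of gene, and its part in the motif shares was not tested.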

How the data were processed

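Per the submitters' processing notes, the tools were cutadapt 3.2, Bowtie2 2.4.2, Picard and MACS2 2.2.7.1 with build hg38, and their settings are not given in the sources used here. The authors deposited 1 peak list per library, so replicates were not pooled. Each deposited peak carries a fold (a linear ratio over local background) and −log10 p- and q-values. Read numbers were recovered from these: a whole-number pileup and a background that give both values. The mouse libraries were not used.

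Peak summits were assigned to GENCODE 44 genes, and no peak passed the end of any of the 22 autosomes in hg38. Density is peaks over gene body outside 2 kb of start sites. Gene densities were fitted with limma 3.58.1 (R 4.3.3) on log2((peaks + 0.5)/(expected + 0.5)) with a mean-variance trend, each line against the mean of the other 3, at an adjusted p threshold of 0.05. The fit was also run on simulated data with the same call rate in every library, unlike these data, so that run is not used as support. Named genes were the 6 most restricted per line, the 3 densest, the 3 most even and the 2 called genes of largest size from each list. KIF26B, GALNT17 and TAFA1 were named after their values were seen, and GALNT17 as the least dense gene. The genes and lists were chosen with earlier results of these data known, so list counts are descriptions. Other tools were Python 3.11.15 and scipy 1.17.1.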

Additional observations from a re-analysis of the deposited data

How the results depend on the processing

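The order of the lines by the ratio to other genes, HEK293T highest and K562 lowest, held in the main setting and the 6 others in which it was computed, and GM12878 and HFF1 changed places in genes of 1 Mb or more. Replicate numbers did not pair the libraries: correlations of replicate differences between lines over 3292 genes lay between -0.023 and 0.025. With a replicate block, the density test had an eta squared of 0.994 with an exact permutation p of 0.0833, which no longer passed the threshold and where the smallest p is 0.0417, and the ratio test kept its side of the threshold at 0.0417. Leaving out each library in turn gave an eta squared of 0.988 to 0.997 for density and 0.998 to 0.999 for the ratio.

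Without scaling, the genes called numbered 177 higher and 36 lower in GM12878, 38 higher in K562, 68 and 142 in HEK293T and 194 and 59 in HFF1. The higher genes were 49.2%, 17.2%, 5.86% and 65.1% of all genes tested in the same order of lines. With pileups thinned to the background level of the shallowest library, an alternative chosen after seeing the data, 23 were lower in HEK293T. Leaving out each library gave 75 to 119 higher and 46 to 75 lower in GM12878, 45 to 74 and 139 to 156 in K562, 156 to 177 and 32 to 41 in HEK293T, and 74 to 108 and 90 to 112 in HFF1. The pseudocount in proportion to the library was also chosen after seeing the data.

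The line-specific share stayed above that of other genes in each line under all 13 settings. With 40000 peaks it was 53.1% in GM12878, 39.6% in K562, 46.7% in HEK293T and 67.8% in HFF1. With thinned pileups it was 54.4%, 32.7%, 36.9% and 67.1%. With 1 replicate of a line left out it ranged from 56.7% to 60.1% in GM12878, 37.0% to 43.1% in K562, 28.4% to 35.6% in HEK293T and 69.9% to 72.8% in HFF1. The causes of these shifts were not tested. Peaks missed at low depth limit every count of empty genes.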

Other observations

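The longest genes of the set were looked at outside the rule for named genes and with their values in view, so no test is given for them. RBFOX1, a splicing factor of neurons and muscle and the longest at 2474 kb, was also sparse, with 3 and 7 peaks in GM12878, 6 and 6 in K562, 8 and 5 in HEK293T and 3 and 2 in HFF1. Its promoter had a peak in 8 of 8 libraries. PTPRD, a receptor phosphatase of synapses, had 19 and 13 peaks in GM12878 and 15 and 11 in HEK293T, but 0 in K562 and 0 and 2 in HFF1. EYS, a matrix protein of photoreceptors, had 29 and 33 in GM12878 and 19 and 19 in HEK293T, and 1 to 3 in the 4 other libraries. MACROD2, which removes ADP-ribose from proteins, had 51 and 56 peaks in GM12878, 17 and 19 in HEK293T, 63 and 54 in HFF1 and 1 and 1 in K562, where no promoter peak was called. The lipoprotein receptor gene LRP1B had 16 and 20, 17 and 15, and 31 and 30 in the same 3 lines and 1 and 0 in K562.

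FHIT, WWOX and IMMP2L, picked from the classical fragile sites, are given as peak counts not scaled to the library. Even counts are therefore not even densities. By the scaled fit, 20 (66.7%) of the 30 listed fragile site genes were higher in HEK293T and 3 lower. In K562, 4 were higher and 20 (66.7%) lower. Among all tested very long genes, 56.7% were higher in HEK293T and 50.5% lower in K562. FHIT, a hydrolase encoded at the site most prone to breakage, had 39 and 44 peaks in GM12878, 17 and 19 in K562, 5 and 8 in HEK293T and 16 and 16 in HFF1. WWOX, an oxidoreductase gene, had between 9 and 16 in each of the 8 libraries. The mitochondrial peptidase gene IMMP2L was highest in K562, at 37 and 35 peaks, and lowest in HEK293T, at 6 and 7.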
